A study of Bos taurus with 4 samples.

Results

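Adult-only regions are stretches of the bovine autosomes where a peak of open chromatin was called in both libraries of adult rumen and in neither library of fetal rumen. Overlapping peaks from any of the 4 libraries, sharing 1 bp or more, were joined into regions, and regions on the 29 autosomes that began at 1000000 bp or later were kept. This rule gave 213 adult-only regions out of 12079 merged autosomal regions from 1000000 bp on (1.76%), and out of 19749 merged regions in the whole series. Of those 12079 regions 319 (2.64%) carried peaks of both adult libraries, whatever the fetal lists held. The regions were chosen by the presence and absence of peak calls in the 4 lists, so these counts are descriptions and nothing is read from their shares. It also rests on having both adult libraries: with adult 2 alone standing for the adult group there were 7532 such regions, and with adult 1 alone there were 3688.

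The rumen is the fermentation chamber of the ruminant forestomach. Its lining is a stratified squamous epithelium that takes up short-chain fatty acids made by microbes, and this function develops after birth as solid feed is eaten. In ATAC-seq a transposase inserts sequencing adapters into accessible DNA, so a local pile of fragments marks a stretch such as a promoter or an enhancer that is free of tightly packed nucleosomes. The fetal group held 2 libraries of wild-type male rumen at 90 days, and the adult group 2 libraries of wild-type male rumen at 2 years. The labels number the replicates of a group 1 and 2 and do not say that they came from separate animals. The tissue was labelled rumen, with no cell type named, so more cells of a type and more open chromatin per cell cannot be told apart. The deposited lists name no genes and no genome build, so the regions are given by position on the authors' build, and the tissue label was not checked against marker genes.

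Each peak carries the authors' fold enrichment, the pileup of fragments at the summit over a local background with 1 added to both, and −log10 q, the strength of the call after correction for many tests. The fetal lists hold no value at the adult-only regions, because they list only peaks. Absence from a fetal list therefore means that no peak was called, not that the DNA was closed. The fetal lists held 422 and 741 autosomal peaks from 1000000 bp on, and the adult lists 3828 and 7662. Background pileups were 0.495 and 0.426 fragments in fetal 1 and fetal 2, and 1.37 and 1.61 in adult 1 and adult 2. Background coverage thus differed with the groups and cannot be told apart from age. Whether this came from read depth or from the caller's settings is not known.

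The strongest adult-only region lay at chr21:68450702-68450827, 126 bp wide. Its fold enrichment was 67.8 in adult 1 and 56.0 in adult 2, from pileups of 272 and 303 fragments over expected pileups of 3.02 and 4.43. It ranked 70th by fold among all 8795 peaks of adult 1 and 122nd among the 13934 of adult 2. The summits of both libraries fell on the same base, and the nearest fetal peaks were 7500663 bp away in fetal 1 and 1025095 bp away in fetal 2.

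A pair of neighbouring regions on chromosome 25, 114 bp apart, came next. At chr25:35733891-35734200 the fold was 33.8 in adult 1 and 43.9 in adult 2, and at chr25:35733511-35733776 it was 32.5 and 41.9. Pileups differed more than the folds: 79 and 76 fragments in adult 1 against 186 and 173 in adult 2, over expected pileups of 1.37 in adult 1 and of 3.26 and 3.15 in adult 2. Both summits coincided to the base in both members of the pair. The nearest fetal peak was 948684 bp from the pair.

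Single narrow regions made up most of the other strong ones. The region at chr2:14080501-14080586, only 86 bp wide, had folds of 32.2 and 33.4 and pileups of 88 and 94 fragments in adult 1 and adult 2. At chr28:23247020-23247118 the folds were 26.1 and 32.6, with 63 and 84 fragments. At chr16:22390256-22390396 adult 1 was the higher library, with a fold of 32.9 against 25.0 and 122 fragments against 94. These 3 lay at least 196813 bp from any fetal peak.

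The remaining 6 of the 12 strongest had lower folds between 13.9 and 17.4. They lay at chr23:38632054-38632185 (17.4 in adult 1 and 19.6 in adult 2), chr12:28737308-28737590 (21.0 and 16.7), chr22:18341801-18341933 (15.0 and 15.1), chr12:87143254-87143368 (14.8 and 15.1), chr11:26495916-26495999 (14.5 and 14.7) and chr6:7329968-7330053 (20.2 and 13.9). Only the second region of chromosome 12 had a fetal peak within 1000 bp, a peak of fetal 2 at 302 bp. Among the 12 strongest regions the summits of the adult libraries were 0 to 11 bp apart.

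Most adult-only regions were much weaker than these. Over all 213 the fold in adult 1 ran from 1.97 through a median of 5.02 to 67.8, and in adult 2 from 2.01 through 4.89 to 56.0. The median pileup was 18 fragments in adult 1 and 22 in adult 2. The medians over all autosomal peaks from 1000000 bp on were folds of 4.22 and 3.98 and 10 fragments in each library. Of the 213 regions, 9 stood among the top 10% of both full lists by fold. Those lists hold 8795 and 13934 peaks, of which 3828 and 7662 lie on the autosomes from 1000000 bp on.

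The calls behind the regions were nevertheless stronger than the bulk of each adult list. In adult 1, 75 of the 213 regions (35.2%) reached a −log10 q of 10, against 225 of its 3828 autosomal peaks (5.88%). In adult 2 the numbers were 83 (39.0%) against 221 of 7662 (2.88%). Calls under 3 made up 34 of the 213 (16.0%) in each adult library, against 60.4% and 71.4% of all autosomal peaks. Both libraries were under 3 at 13 regions, and both were at 10 or more at 67. The weakest member by the lower of its 2 calls was chr16:22240010-22240162, with −log10 q of 2.29 in adult 1 and 1.31 in adult 2. Recurrence in 2 lists is part of the rule, so these shares describe the regions and are no test.

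Both adult libraries ordered the regions alike. Across the 213 regions the log2 folds of adult 1 and adult 2 had a Pearson correlation of 0.923 and a Spearman correlation of 0.864. The regions share the same 2 libraries and are not replicates, so no p is given. Without the 12 strongest regions the Pearson correlation was 0.871. The folds were within 1.5 times of each other at 195 regions and over 2 times apart at 3. Adult 1 had the higher fold at 116 regions and adult 2 at 97.

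**Figure D1:**
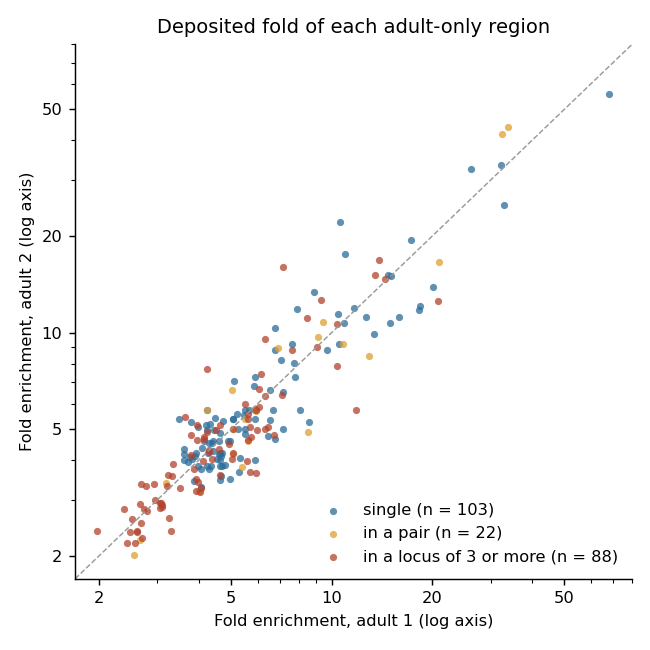
Fold enrichment of each of the 213 adult-only regions in adult 1 (horizontal, log axis) and adult 2 (vertical, log axis), with 1 point per region, coloured by whether it stood alone, in a pair or in a locus of 3 or more regions within 100000 bp. Points follow the dashed line of equality, most lie near the medians of 5.02 and 4.89, and the lowest folds belong mainly to loci of 3 or more.

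The rule asks for overlapping peaks, which by itself brings the summits of the adult libraries close together, so their distances are a description. The summits were a median of 17 bp apart, 110 of the 213 pairs of summits lay within 20 bp, and 20 lay over 100 bp apart. In 89 regions the adult 1 peak lay wholly inside that of adult 2, and in 29 the reverse held. Adult 2 had the wider peak at 160 regions and adult 1 at 50, with median widths of 140 and 115 bp. All autosomal peaks from 1000000 bp on differed the same way, with medians of 104 bp in adult 2 and 85 bp in adult 1. The overlap was as short as 1 bp, at chr12:53212538-53212774. Just outside the rule, 27 peaks found in adult 1 alone lay under 100 bp from a peak found in adult 2 alone without overlapping it, the nearest at 9 bp.

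Adult-only regions occurred on 28 of the 29 autosomes, but unevenly. Chromosome 6 carried 26 (12.2% of the 213, against 5.85% of all merged autosomal regions) and chromosome 21 carried 23 (10.8% against 3.15%). Chromosome 15 followed with 11. Chromosome 9 had none among its 548 merged regions, although 4 of those carried peaks of both adult libraries together with fetal ones. Chromosomes 19 and 22 had 1 each. As a share of the chromosome's own merged regions, adult-only regions reached 6.05% on chromosome 21, 4.67% on chromosome 23, 3.79% on chromosome 27 and 3.68% on chromosome 6, against 1.76% over all autosomes. These chromosomes, in this order, held 39, 15, 17 and 36 of the 319 regions of both adult libraries. They held 9, 1, 5 and 2 of the 58 regions of all 4 libraries. On chromosomes 21 and 27 the high share was thus not particular to adult-only regions.

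**Figure D2:**
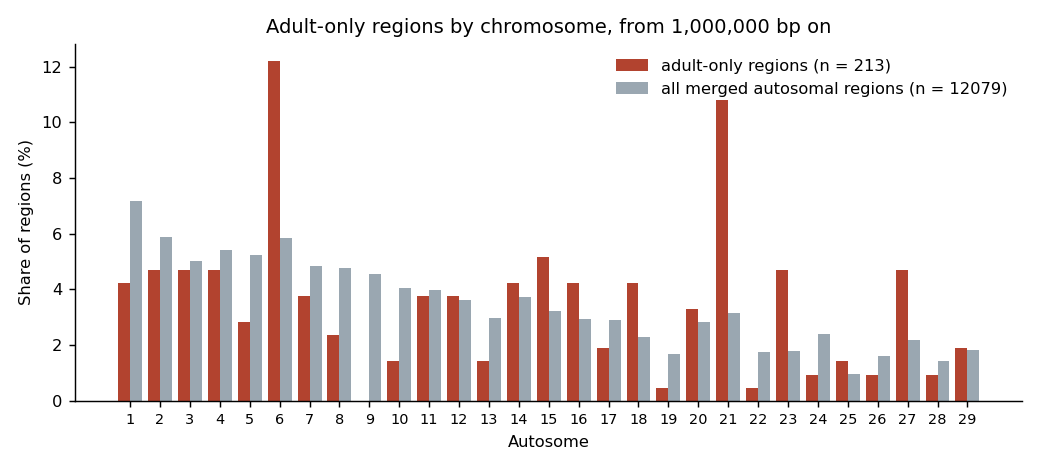
Share of the 213 adult-only regions (red) and of all 12079 merged autosomal regions from 1000000 bp on (grey) that each autosome holds, in percent. Chromosomes 6 and 21 hold 12.2% and 10.8% of the adult-only regions, and chromosome 9 holds none.

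The excess on chromosomes 6 and 21 came from a few dense loci. When adult-only regions within 100000 bp of each other were counted as 1 locus, the 213 regions made 130 loci. Of these, 103 were single regions, 11 were pairs and 16 held 3 or more. The 16 larger loci took in 88 regions (41.3%). Counted by locus, chromosomes 6 and 21 held 10.0% of the loci, against 23.0% of the regions. Chromosome 6 had 7 loci and chromosome 21 had 6, while chromosome 1, with only 9 regions, had 9.

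On chromosome 6, chr6:5433728-5457143 held 12 adult-only regions in 23416 bp. Their folds were low, 2.38 to 3.32 in adult 1 and 2.19 to 3.58 in adult 2, yet their pileups were high, at 38 to 76 and 43 to 78 fragments. The expected pileup there was a median of 16.1 times the library background in adult 1 and 14.5 times in adult 2. The same span also held 1 region open in all 4 libraries and 1 with both adult libraries and a single fetal one. The strongest member, chr6:5449721-5450461, was 741 bp wide and had folds of 3.32 and 3.58.

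A second locus of the same kind began 330113 bp further on, at chr6:5787257-5800610, with 9 adult-only regions in 13354 bp. Folds were 1.97 to 3.87 in adult 1 and 2.38 to 3.88 in adult 2, over expected pileups of 13.3 and 10.8 times background (medians). It again contained 1 region open in all 4 libraries, and its members lay 212 to 2914 bp from a fetal peak. Together both loci hold 21 of the 26 adult-only regions of chromosome 6.

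The locus with the most adult-only regions was chr21:32912364-33020130, with 15 in 107767 bp. It held 37 merged regions in all, of which 7 were open in all 4 libraries and 5 in both adult and 1 fetal library. Its members were diverse. The region at chr21:33019301-33019480 had pileups of 100 and 105 fragments and folds of 10.4 and 7.86, over expected pileups of 8.74 and 12.5. The region at chr21:32983951-32984088 stood over plain background, with 27 and 14 fragments and folds of 11.8 and 5.75. By the lower of its 2 folds the strongest was chr21:32945381-32945538, at 9.02 and 9.03. A further locus on the same chromosome, chr21:34742972-34851065, held 4 regions with folds of 3.64 to 6.33 and no fetal peak within 531524 bp.

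**Figure D3:**
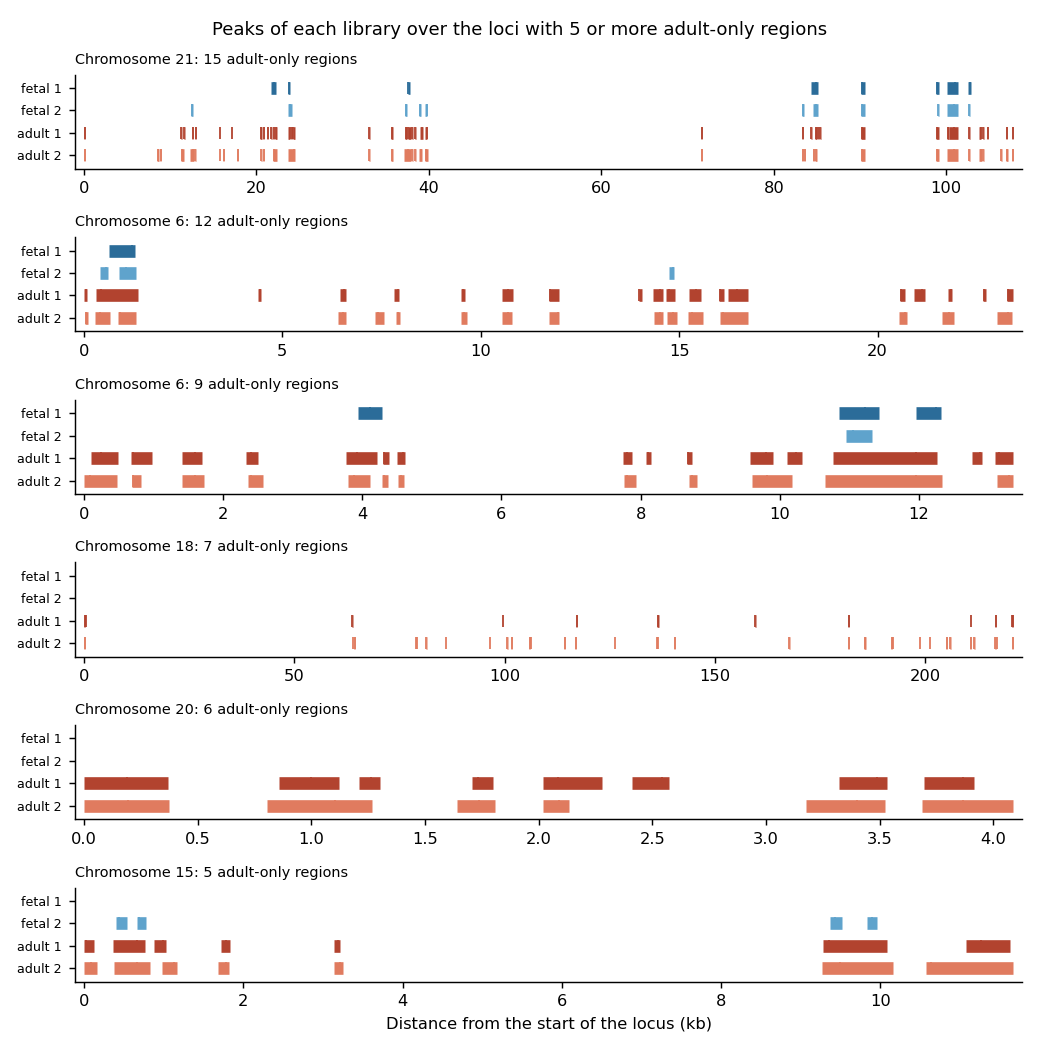
Peaks of each library, drawn as bars from their start to their end, over the 6 loci that hold 5 or more adult-only regions, by distance from the start of the locus in kb. Adult-only regions are places where both adult rows carry overlapping bars and neither fetal row does. The locus of chromosome 21 also holds 12 regions that carry fetal peaks, and each locus of chromosomes 6 and 15 holds 2. Those of chromosomes 18 and 20 hold no fetal peak within their span.

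Other loci with raised background were shorter. On chromosome 20, chr20:63348284-63352370 held 6 adult-only regions in 4087 bp that covered 2063 bp of it, with 36 to 53 fragments in each adult library and folds of 3.93 to 5.75 in adult 1 and 3.26 to 4.73 in adult 2. The expected pileup was 6.12 and 6.48 times background. On chromosome 5, chr5:26563158-26564999 held 3 regions covering 1242 of 1842 bp, with 45 to 65 fragments in adult 1 and 52 to 84 in adult 2. Its strongest region was chr5:26564538-26564999, with folds of 5.68 and 5.06. Fetal peaks lay 319 bp from the nearest region of the first locus and 257 bp from that of the second. On chromosome 15, chr15:83941085-83952750 held 5 regions with folds of 3.78 to 5.04 and 3.96 to 4.80, among them the widest of all, chr15:83951653-83952750 at 1098 bp. On chromosome 4, chr4:31153815-31157794 held 3 regions with folds of 2.67 to 4.13 in adult 1 and 2.90 to 4.65 in adult 2, and no fetal peak within 1090173 bp.

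Chromosome 18 held a wider locus, chr18:57117018-57337952, with 7 adult-only regions spread over 220935 bp. Another 30 regions in this span carried a peak of 1 adult library alone and none carried a fetal peak. Folds ran from 3.11 to 7.10 in adult 1 and from 2.85 to 7.68 in adult 2, and the strongest member, chr18:57337779-57337952, had 7.10 and 6.39. The region at its edge, chr18:57117018-57117232, was the adult-only region nearest to any fetal peak, at 79 bp. A similar sparse locus on chromosome 3, chr3:22674099-22792783, held 3 adult-only regions and 16 regions of 1 adult library alone. Its strongest member, chr3:22766912-22767027, had folds of 4.30 and 4.24.

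Other loci stood over plain background. On chromosome 11, chr11:26490225-26503223 held 3 regions with 31 to 35 fragments in adult 1 and 42 to 43 in adult 2. Their folds were 13.5 to 14.5 and 14.7 to 16.9, over expected pileups of 1.00 and 1.18 times background (medians), and no fetal peak lay within 681045 bp. On chromosome 16, chr16:54400485-54449271 held 3 regions and no other peak. Their folds were 7.17 to 9.28 in adult 1 and 11.1 to 16.1 in adult 2, so here adult 2 lay above adult 1 throughout. Its strongest member by the lower fold was chr16:54449124-54449271, with 9.28 and 12.6. On chromosome 29, chr29:5538945-5567860 held 4 weak regions with 10 to 16 and 10 to 13 fragments, the strongest of them chr29:5566687-5566889 with folds of 5.06 and 4.98.

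Chromosomes 23 and 27 carried the remaining loci. On chromosome 23, chr23:21753254-21796069 held 4 regions, of which chr23:21795856-21796069 was far the strongest, with folds of 20.9 in adult 1 and 12.6 in adult 2 and 49 and 34 fragments. The median folds of this locus were 5.91 and 6.16, and 3 regions with fetal peaks lay in the same span. On chromosome 27, chr27:6279484-6341452 held 3 regions led by chr27:6279484-6279619, with folds of 10.4 and 10.7. After a gap of 319529 bp, chr27:6660982-6765329 held 4 regions with 12 to 14 fragments in adult 1 and 12 to 19 in adult 2. Its strongest member, chr27:6664228-6664397, had folds of 6.13 and 7.43, and no fetal peak lay within 368945 bp.

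Local background was higher in the dense loci than at single regions. The expected pileup was at least 2 times the library background in both adult libraries at 71 of the 213 regions (33.3%). These were 55 of the 88 regions in loci of 3 or more (62.5%), 8 of the 22 in pairs (36.4%) and 8 of the 103 single regions (7.77%). Median pileups were 32 and 39.5 fragments in loci of 3 or more, against 13 and 14 at single regions. Median folds ran the other way, 4.23 and 4.23 against 5.19 and 5.19 in adult 1 and adult 2. The highest background belonged to a pair at chr2:121569670-121570668, where the expected pileup was 89.5 to 92.7 times background in adult 1 and 110 to 114 times in adult 2. There 325 to 400 fragments gave folds of only 2.01 to 2.67, and fetal peaks lay 156 and 265 bp away. Each list was called on 1 library alone, so the expected pileup and nearby peaks are not independent measures. The part of local background in the clustering was not tested.

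**Figure D4:**
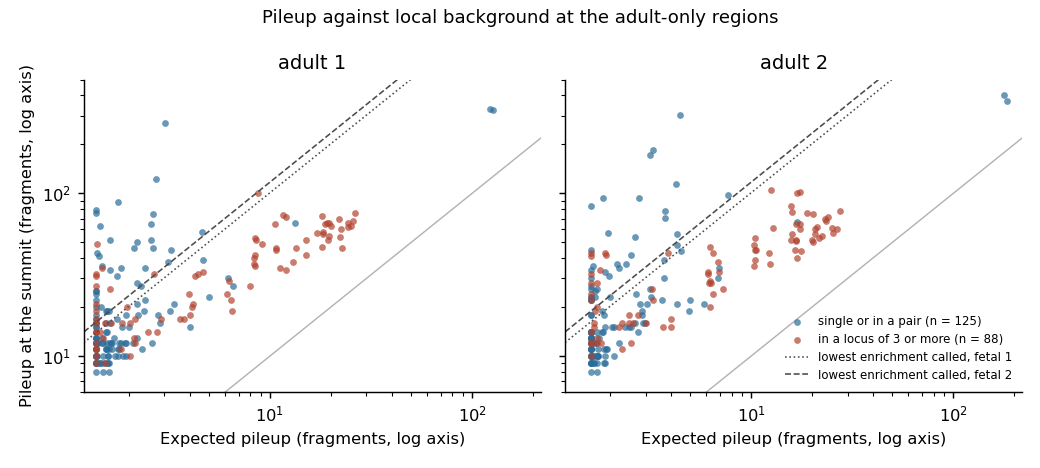
Pileup at the summit against expected pileup, in fragments on log axes, for the 213 adult-only regions in adult 1 (left) and adult 2 (right). Regions in loci of 3 or more (red) spread to high expected pileups at low enrichment, and most points lie under the dotted and dashed lines, which mark the lowest enrichment called at plain background in fetal 1 (10.1) and fetal 2 (11.7). The grey line marks equal pileup and expected pileup.

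Adult enrichments, the pileup divided by the expected pileup, were set beside the lowest enrichments called in the fetal lists. This takes the lists as called with like settings, which is not known. The narrowest peaks were 186 and 112 bp in fetal 1 and fetal 2, and 67 and 81 bp in adult 1 and adult 2. Whether fetal coverage could have shown a region is therefore not settled by these counts. Over plain background the weakest fetal calls held 5 fragments, an enrichment of 10.1 in fetal 1 and 11.7 in fetal 2. The lower of the 2 adult enrichments reached both of these at 37 of the 213 adult-only regions (17.4%), and at 167 it lay under both. Over plain background no fetal peak of so low an enrichment was called. These limits do not hold where local background was raised. The expected pileup was at least 2 times background in both adult libraries at 71 of the 213 regions. With adult pileups scaled to each fetal background, a calculation chosen after seeing the data, 60 regions would have reached the weakest fetal p. These included all 37, which is largely built in, since both measures use the same pileups and backgrounds. On that scaling some regions under the higher limit would be within reach too. With the deposited fold in place of the enrichment 17 regions passed.

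The 37 regions above both fetal limits also passed by scaled pileups, which is no second line of support. They lay on 20 autosomes, 24 as single regions, 5 in pairs and 8 in loci of 3 or more, and 32 were over 1000 bp from any fetal peak. Their median pileups were 35 fragments in adult 1 and 37 in adult 2, and the lowest −log10 q among them was 10.1 in adult 1 and 14.5 in adult 2. In all, 84 autosomal regions from 1000000 bp on had both adult peaks at such enrichments, of which 46 also carried a peak of fetal 2 and 30 a peak of fetal 1. Adult-only regions were thus 44.0% of these 84, and 74.9% of the 235 regions of both adult libraries under the higher limit.

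Some adult-only regions adjoined fetal peaks. A peak of either fetal library lay within 1000 bp of 36 regions (16.9%) and within 10000 bp of 73 (34.3%), and the median distance was 251809 bp. The same shares over all merged autosomal regions were not computed, so closeness to fetal peaks is not read as a trait of adult-only regions. Of the 36 within 1000 bp, 22 were in loci of 3 or more, 5 in pairs and 9 single. In total 52 of the 213 lay in a locus whose span also held a region with a fetal peak. At these loci adult and fetal calls interleaved.

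Adult-only regions were intermediate in width. Their median was 168 bp, from 84 bp at chr11:26495916-26495999 to 1098 bp, and 5 were 500 bp or wider. Regions of adult 1 alone and adult 2 alone had medians of 83 and 103 bp, the 42 regions of both adult libraries and fetal 2 a median of 294 bp, and the 58 regions of all 4 libraries a median of 690 bp. Merging more lists widens a region by construction. Within adult 1 alone the median peak width was 115 bp at adult-only regions and 328 bp at regions of all 4 libraries, and in adult 2 it was 140 and 463 bp.

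**Figure D5:**
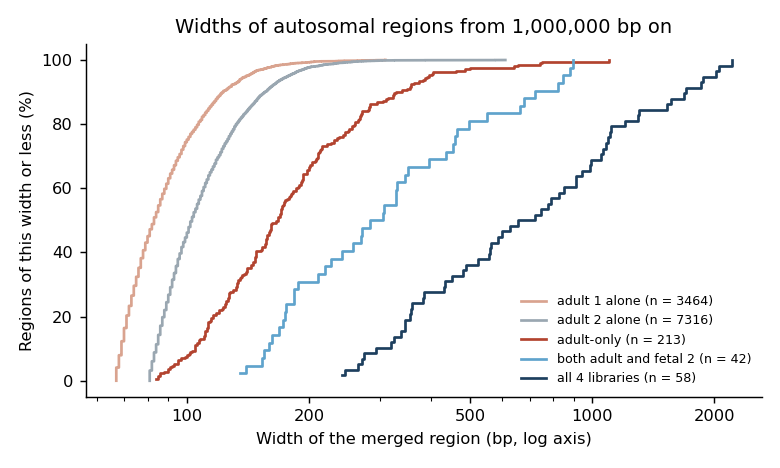
Cumulative share of merged autosomal regions from 1000000 bp on, in percent, by width in bp on a log axis, for 5 patterns of presence. The curve of the 213 adult-only regions (median 168 bp) lies between those of single-library regions (83 and 103 bp) and those of the regions that also carry fetal peaks (294 and 690 bp).

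The regions open in all 4 libraries were also the stronger ones. Their median folds were 10.4 in adult 1 and 10.3 in adult 2, against 5.02 and 4.89 at adult-only regions, and their median pileups 68.5 and 73 fragments against 18 and 22. Raised local background was common among them too: the expected pileup in adult 1 was at least 2 times background at 65.5% of them, against 33.8% of adult-only regions and 1.47% of regions of adult 1 alone. Clustering followed the same order. Another region of both adult libraries lay within 100000 bp of 120 of the 213 adult-only regions (56.3%), 47 of the 58 regions of all 4 libraries (81.0%) and 3.93% and 3.46% of regions of adult 1 or adult 2 alone, against 5.05% of all merged autosomal regions. No test of these differences was made.

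Along the chromosomes, adult-only regions were fewest past the middle. Measured to the furthest peak of each chromosome, 80 regions (37.6%) lay in the stretch from 0 to 25% of its length, 51 from 25 to 50%, 22 (10.3%) from 50 to 75% and 60 (28.2%) from 75 to 100%. All merged autosomal regions were spread at 24.2% to 25.7% over these stretches. Counted by locus the 4 stretches held 43, 28, 19 and 40 of the 130 loci. The last 1000000 bp held 13 regions (6.10%, against 1.56% of all merged autosomal regions and 15.5% of those of all 4 libraries), and 9 of them lay within 100000 bp of the furthest peak. Among these, chr3:120968267-120968546 was itself the furthest peak of its chromosome and had folds of 10.6 in adult 1 and 22.1 in adult 2, with fetal peaks at 711 and 709 bp. At chr5:120080275-120080432 the folds were 10.5 and 11.5, with fetal peaks at 84 and 185 bp. At chr8:113045062-113045166 they were 18.3 and 11.8, and the nearest fetal peak was 196456 bp away.

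The limit of 1000000 bp at the start of the chromosomes removed 122 adult-only regions. The 2 nearest below it were chr2:926085-926236, with folds of 4.71 and 4.82, and chr16:829569-829692, with 38.9 and 18.0. The 2 nearest above it were chr12:1711263-1711460, at 4.14 and 4.60, and chr15:2094225-2094382, at 4.60 and 4.17, so no adult-only region began in the 711262 bp after the limit.

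Adult-only regions in the first 1000000 bp of the autosomes and on X were denser. Another adult-only region lay within 100000 bp of 109 of those 122 (89.3%), of 124 of the 153 on X (81.0%) and of 110 of the 213 (51.6%). Background at least 2 times raised in both adult libraries was found at 57.4%, 54.9% and 33.3%. Median folds were 5.87 and 6.38 in the first 1000000 bp, 4.65 and 4.60 on X and 5.02 and 4.89 at the 213. The share above both fetal limits was 21.3% in the first 1000000 bp, 8.50% on X and 17.4% here. These are descriptions of 1 pair of adult libraries.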

How the data were processed

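The authors deposited 1 list of narrow peaks per ATAC-seq library, called on each library alone. Per the layout of the deposited lists, each row gives a fold enrichment (a ratio), −log10 p, −log10 q and a score, all from the authors' caller. The lowest −log10 q was 1.30 to 1.31 in each list. For ATAC-seq the caller, aligner, filters and genome build were not given in the sources used here. FastQC 0.11.5, Trimmomatic 0.36, Bismark 0.16.3 and Bowtie2 are named in the submitters’ processing notes.

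Peaks were merged at 1 bp of overlap with Python 3.11.15 and pandas 2.3.3. For each region the strongest peak by fold of a library was used. A whole-number pileup and an expected pileup that return the deposited fold and Poisson p were found for 100% of peaks (relative tolerance 0.0001). The most frequent expected pileup of a list is its background. Total reads are unknown, and pileups carry counting error and PCR copies. The code was tested on simulated lists.

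No group test was made: with 2 against 2 libraries an exact permutation test cannot go below p = 0.333. Replicates may be technical. Named regions were the 12 with the highest lower fold, the loci of 3 or more with their strongest region, and the extremes of width, −log10 q and start. Regions at the chromosome ends, the pair of highest background, the smallest overlap, the region nearest a fetal peak and 2 further regions of chromosome 21 were picked with their values in view. The regions and lists were chosen with earlier results of these data known. Genes near the regions were not analysed here, because the available gene table is on assembly ARS-UCD2.0 and the build of the peak positions is unnamed. No sequences are shown because no genome was used here.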

Additional observations from a re-analysis of the deposited data

How the results depend on the processing

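Of 36 values computed under alternatives, 20 stayed within their limit and 16 moved. The limit was 1.5 times for counts and for the share on chromosomes 6 and 21. For median folds and widths it was the spread between the adult medians. For the correlation and the summit distance any change counted as moved. The count of 213 adult-only regions became 127 with −log10 q of at least 5, 24 with lists cut to the 1878 strongest peaks and 335 without the start limit. With 1 library left out at a time the count ran from 224 to 7532, with 3688 without adult 2 and 7532 without adult 1. The lower counts were made on fewer peaks. The median folds in adult 1 and adult 2 became 5.65 and 5.35 with −log10 q of at least 3 and 6.64 and 6.35 with at least 5, and 4.98 in adult 2 where peaks had to cover 50% of a region. Regions with another adult-only region within 100000 bp numbered 71 with −log10 q of at least 5, against 110. Regions above both fetal limits numbered 17 by the deposited fold and 60 with scaled pileups, against 37. Chosen after seeing the data were the scaled pileups, loci counted once (10.0% on chromosomes 6 and 21, against 23.0%), leaving out the 12 strongest regions (correlation 0.871, against 0.923) and fetal peaks within 10000 bp (73, against 36 within 1000 bp). The causes of these changes were not tested. No paired analysis was possible because fetal and adult libraries share only their numbers and the counts come from no test. Fetal coverage limits what the lists can show.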
